A study of Mus musculus with 7 samples.

Results

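The genes described are the nuclear genes of the mitochondrial carrier family SLC25, with the uncoupling protein genes Ucp2 and Ucp3 and the related outer membrane genes Mtch1 and Mtch2. They were taken by symbol from the deposited table, every Slc25a gene except the carnitine-acylcarnitine carrier gene Slc25a20, and grouped by the substrate their proteins carry. Of the 13788 genes in the table, 42 were members. Under these names the GENCODE M21 annotation holds 50 genes, and the other 8 (Slc25a2, Slc25a18, Slc25a21, Slc25a31, Slc25a41, Slc25a43, Slc25a48 and Slc25a54) had no row in the table and are not analysed here. RNA came from total hearts of newborn C57BL/6 mice at postnatal day 0. The comparison sets hearts labelled edKO (n = 4, replicates 5, 6, 15 and 33) against wild-type hearts (WT, n = 3, replicates 1, 2 and 28). In edKO both Rxra and Rxrb were deleted, specifically in cardiomyocytes. The labels give no treatment, and they do not name the Cre line, the deleted exons, the litter or the sex. The comparison addresses which carrier transcripts depend at birth on the retinoid X receptors, nuclear receptors that bind DNA as partners of receptors such as PPARs and LXRs.

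Mitochondrial carriers are proteins of the inner mitochondrial membrane that exchange nucleotides, phosphate, organic acids, amino acids and cofactors between the cytosol and the matrix. In heart muscle the ADP/ATP carrier and the phosphate carrier supply the ATP synthase, and the aspartate/glutamate and oxoglutarate carriers form the malate-aspartate shuttle, which brings reducing equivalents into the matrix. Uncoupling proteins belong to the same family. Ucp3 is known in heart and skeletal muscle as a gene that follows fatty acid supply.

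Values are normalised reads per 1000000, given as mean ± SD for n = 3 WT and n = 4 edKO. Each library held 12108464 to 24912403 reads, back-calculated from these values. The limit that 3 reads set was 0.122 in the deepest library and 0.262 in the shallowest, on the same scale, and covers counting error alone. The targeted genes were at 59.3 to 62.8 (Rxra) and 45.5 to 51.7 (Rxrb) in WT and at 59.5 to 75.5 and 34.2 to 44.01 in edKO. The Rxrb groups did not overlap. Neither gene passed the test (limma adjusted p = 0.632 and 0.139), and whole-gene totals from whole hearts, where other cells keep both genes, do not check the labels. Xist, the transcript of the inactive X chromosome, was at 167 to 441 in WT replicate 1 and edKO replicates 5 and 6 and at most 1.93 in the other 4 libraries, so both groups hold libraries of each kind. Of 7 cardiomyocyte markers none was called, and their summed level was 39466 to 45850 in WT and 39560 to 43483 in edKO. The summed markers of other cells, in WT and in edKO, were 5406 to 6879 and 3286 to 6792 for fibroblasts, 849.99 to 1090 and 927 to 1084 for endothelium, 1139 to 1962 and 1185 to 1661 for smooth muscle and pericytes. They were 79.0 to 84.7 and 62.9 to 87.3 for macrophages and leukocytes, 168 to 193 and 144 to 247 for epicardium, 7.87 to 12.3 and 6.00 to 7.81 for neurons and Schwann cells, where the 3 of 6 markers in the table gave sums that did not overlap. The epicardial gene Tbx18 was higher in edKO (26.98 ± 2.25 to 40.9 ± 2.24, log2 difference 0.58, limma adjusted p = 0.00798) and the other markers of these 6 lists did not pass. In whole hearts, fewer cells of a type and less RNA per cell cannot be told apart.

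Of the 42 members, 4 fell and 1 rose in edKO, and 37 did not pass the test. The genes that fell were Ucp3, Ucp2, Slc25a42 and Slc25a34, and the gene that rose was Slc25a38. These 5 are 11.9% of the members. Of all 13788 genes, 4.21% were called (limma, Benjamini-Hochberg adjusted p under 0.05), 2.13% lower and 2.08% higher in edKO. The single rise is a share near the background. The median log2 difference was -0.00030 over the members and -0.0036 over all genes, with 21 members above 0 and 21 below. Slc25a4, Slc25a3 and Slc25a5, the most abundant carriers of the family, were not among those called.

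**Figure D1:**
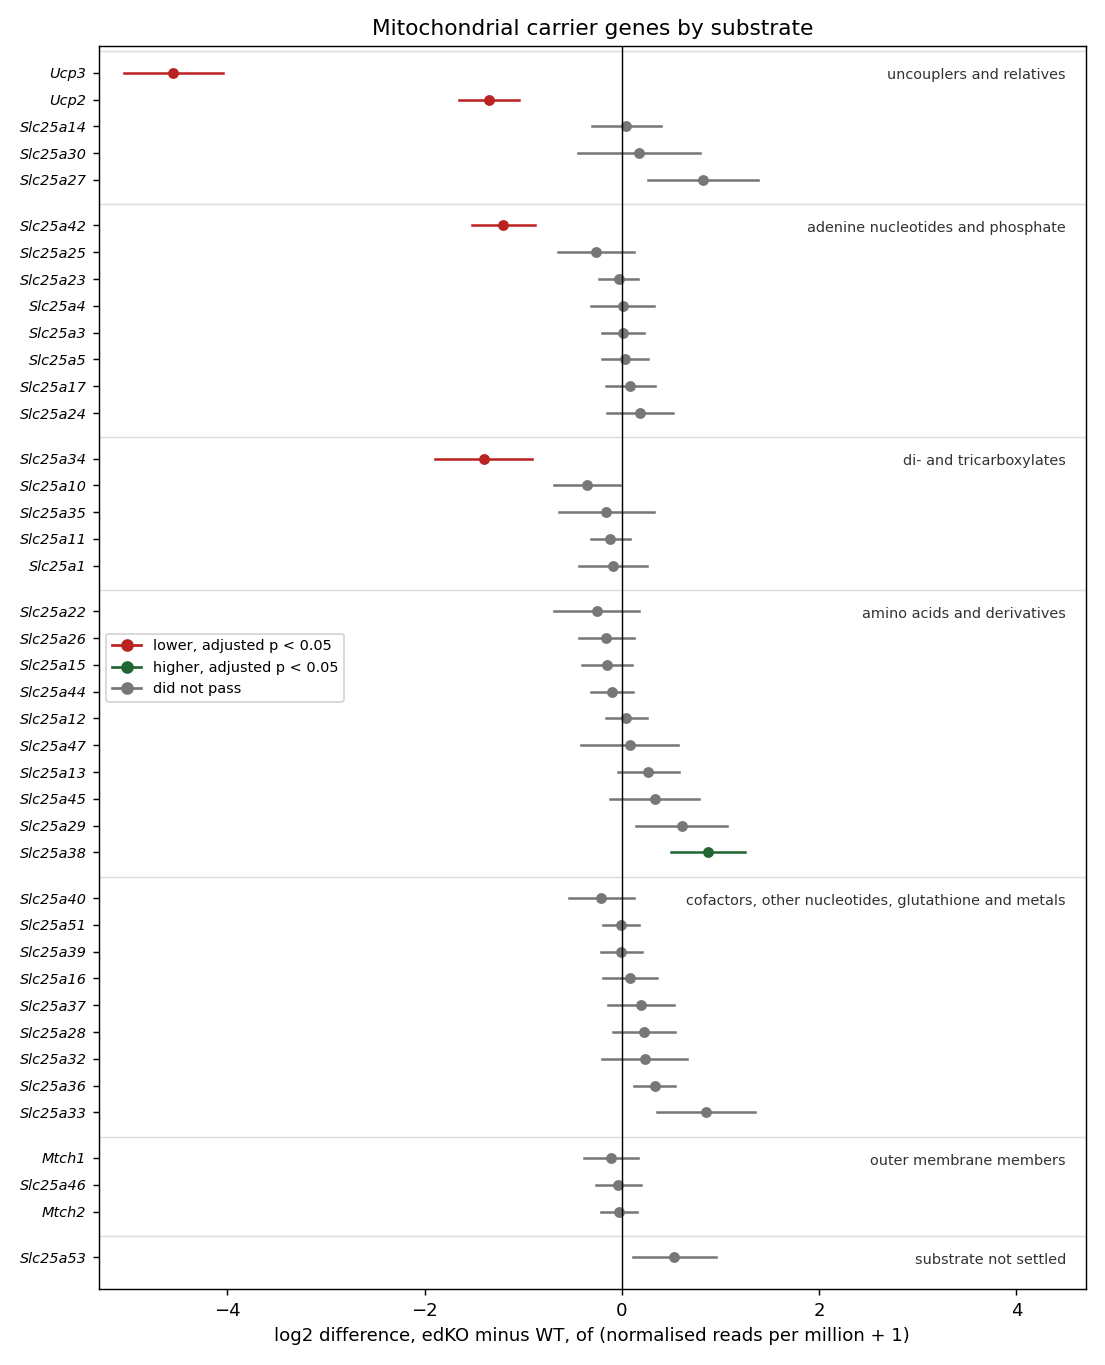
Log2 difference between edKO and WT, on the log2(value + 1) scale, for 41 of the 42 carrier genes, by substrate group, with the 95% interval of the limma fit as bars. Ucp3 stands at -4.55, Ucp2, Slc25a42 and Slc25a34 lie between -1.20 and -1.40, and Slc25a38 stands at 0.87.

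The promoter windows of 3 of the genes that fell are printed because retinoid X receptors bind DNA at direct repeats of a short hexamer. They are from RefSeq (GRCm38.p6), 250 bases before to 50 after the annotated start, 5′ to 3′ on the strand of the gene, and capitals mark matches to the letters described after them.
Ucp3 (chr7:100472741-100473040, plus strand): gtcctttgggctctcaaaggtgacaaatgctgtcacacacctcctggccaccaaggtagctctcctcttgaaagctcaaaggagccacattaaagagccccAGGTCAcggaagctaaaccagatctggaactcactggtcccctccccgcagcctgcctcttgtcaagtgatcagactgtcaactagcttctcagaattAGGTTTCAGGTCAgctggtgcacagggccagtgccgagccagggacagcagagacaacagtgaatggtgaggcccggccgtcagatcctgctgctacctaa
Ucp2 (chr7:100493108-100493407, plus strand): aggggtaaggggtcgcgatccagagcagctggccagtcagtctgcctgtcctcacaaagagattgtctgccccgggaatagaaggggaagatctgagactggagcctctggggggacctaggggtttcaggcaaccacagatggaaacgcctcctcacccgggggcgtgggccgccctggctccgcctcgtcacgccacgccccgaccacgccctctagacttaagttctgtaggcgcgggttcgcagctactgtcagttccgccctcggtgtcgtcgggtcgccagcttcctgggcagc
Slc25a34 (chr4:141623785-141624084, minus strand): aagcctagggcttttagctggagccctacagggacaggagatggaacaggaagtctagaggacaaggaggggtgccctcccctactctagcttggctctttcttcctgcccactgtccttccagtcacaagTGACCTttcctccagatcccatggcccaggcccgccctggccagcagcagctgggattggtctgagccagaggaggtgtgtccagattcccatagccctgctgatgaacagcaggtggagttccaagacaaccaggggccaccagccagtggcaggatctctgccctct
The hexamer searched was AGGTCA, on both strands, and the direct repeat with a spacer of 1 base was AGGTCANAGGTCA with at most 2 mismatches. The repeat contains the hexamer, so the matches overlap. Ucp3 held 2 hexamers, the first starting 149 bases before the start site and the second 44 bases before it. The second is the 3′ end of AGGTTTCAGGTCA, which begins 51 bases before the start site and matches the repeat with 2 mismatches. Slc25a34 held 1 hexamer, on the other strand, 119 bases before the start site. Neither pattern occurred in the windows of Ucp2, Slc25a42 or Slc25a38. Of 32851 promoter windows of this length, 16.3% hold the hexamer and 3.86% the repeat at this tolerance. Of the 33 members matched to a window, 6 held the hexamer and 3 the repeat (Ucp3, Slc25a45 and Slc25a47). A match describes letters in this window and no binding was measured.

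Among the uncouplers and their relatives, 2 of 5 measured genes fell and 3 did not pass. Ucp3 (ENSMUSG00000032942, chromosome 7, 100472990 to 100486432, plus strand, GRCm38) encodes the uncoupling protein of muscle. It was at 56.3, 57.9 and 48.9 in WT replicates 1, 2 and 28, and at 1.61, 2.20, 1.47 and 0.509 in edKO replicates 5, 6, 15 and 33. The groups lie far apart, and edKO replicate 33, the deepest library, was lowest. These edKO values rest on 18, 36, 24 and 12 reads, above the floor of 3, against 672 to 842 in WT. The means were 54.4 ± 4.81 and 1.45 ± 0.701, a 37.6-fold lower level (log2 difference -4.55, 95% interval -5.05 to -4.05, limma adjusted p = 1.22e-06). This is the lowest log2 difference of the 13788 genes. The fold depends on how low values are scaled: the log2 difference was -5.29 with a pseudocount of 0.1, -5.54 with voom and -3.21 with a pseudocount of 5. In these 3 fits it was not the lowest of all genes. None of the 61-nt windows of Ucp3 transcripts occurs in another gene.

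Skeletal muscle also expresses Ucp3, so its markers stand beside this result. Of 6 skeletal muscle markers 3 were in the table and none was called, and Myod1, Myog and Myh3 had no row. Their summed level was 229, 166 and 115 in WT replicates 1, 2 and 28 and 114, 54.6, 102 and 82.2 in edKO replicates 5, 6, 15 and 33, so that the sums did not overlap, by a small margin. Acta1 made up most of the sum, at 158 ± 65.6 in WT and 83.7 ± 25.7 in edKO. The 3 genes had a median log2 difference of -0.91 and each had an unadjusted p under 0.05, as 19.2% of all genes did. Of 6 brown adipocyte markers 3 were in the table and none was called, with a summed level of 559 to 872 in WT and 816 to 1112 in edKO. Their median log2 difference was 0.58, and 2 had an unadjusted p under 0.05. Fabp4 made up most of the sum, at 638 ± 182 in WT and 934 ± 132 in edKO. Ucp1, the uncoupler of brown fat, had no row. The part of either cell type in the result was not tested.

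Ucp2 (ENSMUSG00000033685, chromosome 7, 100493337 to 100502020, plus strand) encodes a widely expressed uncoupling protein. It was at 376, 316 and 353 in WT replicates 1, 2 and 28 and at 177, 137, 116 and 122 in edKO replicates 5, 6, 15 and 33. Every edKO library lay below every WT library, and edKO replicate 5 was the highest of the edKO group. The level fell 2.53-fold, from 348 ± 29.96 to 138 ± 27.6 (log2 difference -1.35, 95% interval -1.65 to -1.05, limma adjusted p = 0.000302). Its 3′ end overlaps Dnajb13 on the other strand by 305 bases, and 3.35% of its 61-nt windows also occur in that gene, which had no row. Per kb of exon, Ucp2 ranked 6 among the members in WT and 9 in edKO, at 49.9 ± 4.29 and 19.7 ± 3.96 normalised reads per 1000000 per kb. Ucp3 went from rank 12 to rank 41 of 42 on the same scale, at 17.3 ± 1.53 and 0.462 ± 0.224.

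**Figure D2:**
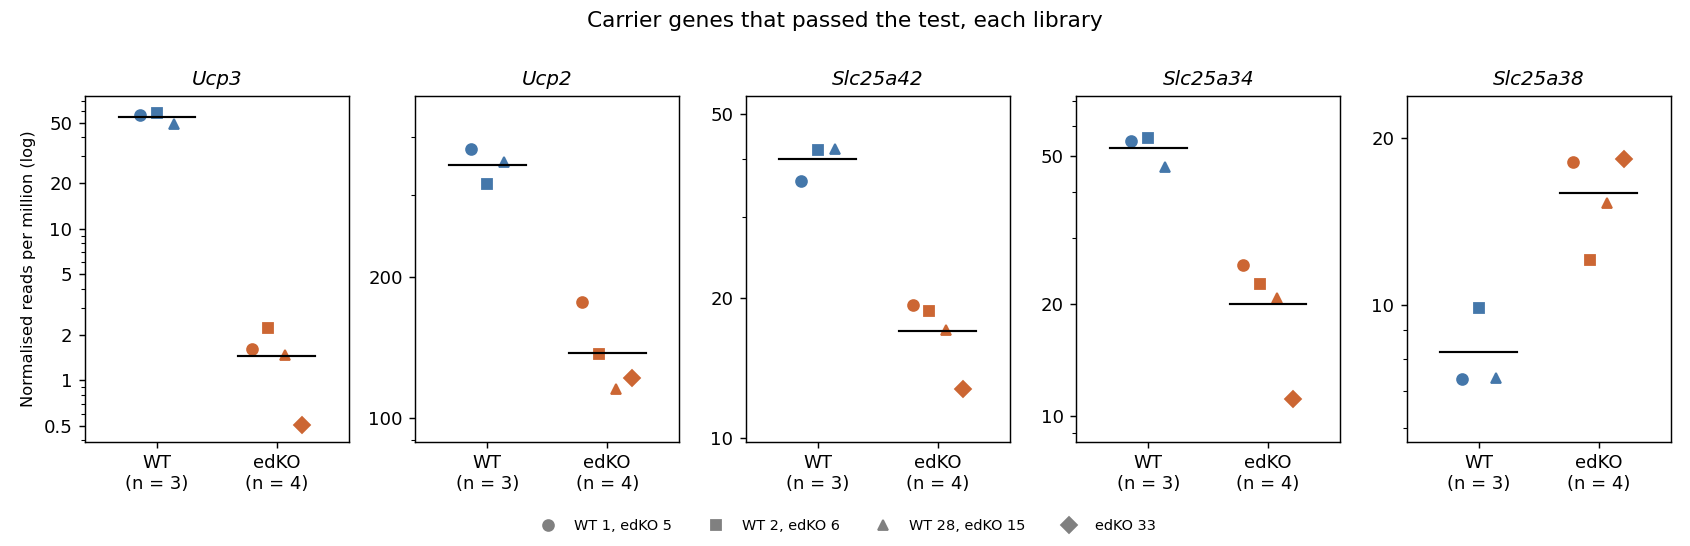
Normalised reads per 1000000 (log axis, a scale of its own in each panel) of the 5 carrier genes that passed the test, 1 point per library, with the symbol naming the replicate and a bar at the group mean. Symbols shared by WT and edKO libraries do not pair them. WT and edKO points do not overlap in any panel, and edKO replicate 33 is the lowest library for Ucp3, Slc25a42 and Slc25a34.

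The other 3 genes of this group encode uncoupling protein relatives best known from brain and kidney. Slc25a27, also named UCP4, was at 4.66, 6.22 and 6.44 in WT replicates 1, 2 and 28 and at 17.6, 7.02, 12.1 and 9.31 in edKO replicates 5, 6, 15 and 33. The groups did not overlap, with a log2 difference of 0.82 that did not pass (95% interval 0.27 to 1.38, limma adjusted p = 0.0987). Slc25a30 was at 6.72 ± 0.754 and 8.22 ± 3.10 and Slc25a14 at 3.71 ± 0.331 and 3.85 ± 0.270, both with overlapping groups. The summed level of the 5 genes was 419 ± 29.04 in WT and 163 ± 32.8 in edKO, which is 5.11% and 2.06% of the summed level of all members, and Ucp2 made up most of it.

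Ucp3 and Ucp2 are neighbours on chromosome 7, on the same strand, with 6.90 kb and no annotated gene wholly between them. Within 100 kb of the pair, 6 genes were in the table and 3 were called, all lower. Both counts include Ucp3 and Ucp2, around which the window was drawn. Of all genes, 4.21% were called, and 2.13% were called lower. The only called gene besides the pair is Gm10603 (100446737 to 100474846, minus strand), named after its values were seen. It is a non-coding gene of the antisense class, and its span overlaps both C2cd3 and, by 1857 bases, Ucp3 on the other strand. It was at 6.67, 5.12 and 5.49 in WT replicates 1, 2 and 28 and at 0.393, 0.0904, 0.509 and 0.387 in edKO replicates 5, 6, 15 and 33. It was under the limit of 3 reads in edKO replicate 6 and above it in the other 3, and the groups were far apart (log2 difference -2.33, limma adjusted p = 9.92e-05). Its exons share 0 bases with those of Ucp3, and 139 of its 6938 exon bases lie inside the span of Ucp3. The labels do not state that counting used the strand, so reads of the genes cannot be assigned by strand where they overlap. C2cd3 (100372233 to 100470152, plus strand), upstream of Ucp3, was at 24.8 ± 2.03 and 18.1 ± 3.51, with separate groups, and did not pass (log2 difference -0.45, adjusted p = 0.122). Coa4 and Mrpl48, beyond Ucp2, had log2 differences of -0.25 and 0.09 and did not pass (adjusted p = 0.457 and 0.668).

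**Figure D3:**
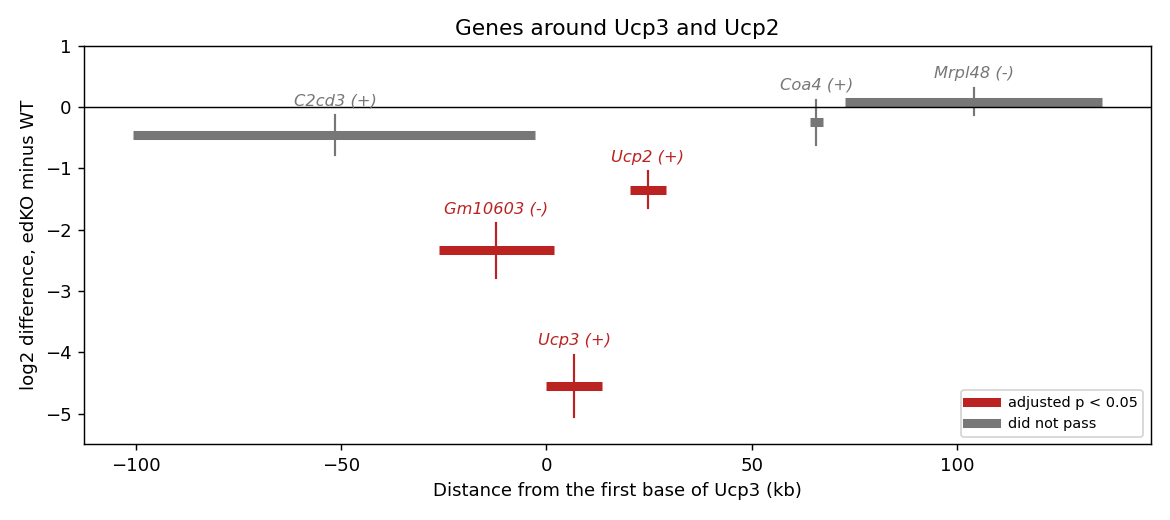
Log2 difference between edKO and WT of the genes in the table within 100 kb of Ucp3 and Ucp2, against distance from the first base of Ucp3 in kb. Thick bars span each gene, thin lines are 95% intervals of the limma fit and the sign in brackets is the strand. Gm10603 (-2.33), Ucp3 (-4.55) and Ucp2 (-1.35) were called. C2cd3, Coa4 and Mrpl48 did not pass, and the span of C2cd3 overlaps that of Gm10603.

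In the group of adenine nucleotide and phosphate carriers, 1 of 8 measured genes fell and 7 did not pass. The gene that fell was Slc25a42 (ENSMUSG00000002346, chromosome 8, 70184340 to 70212305, minus strand), whose protein takes coenzyme A into the matrix in exchange for adenine nucleotides. It was at 35.8, 41.9 and 42.1 in WT replicates 1, 2 and 28 and at 19.3, 18.8, 17.1 and 12.7 in edKO replicates 5, 6, 15 and 33. The groups were separate by a wide margin, and edKO replicate 33 was the lowest. The level fell 2.35-fold, from 39.95 ± 3.60 to 16.98 ± 2.99 (log2 difference -1.20, 95% interval -1.52 to -0.88, limma adjusted p = 0.00105).

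The 3 most abundant carriers belong to the same group and did not pass. Slc25a4 encodes the ADP/ATP carrier of heart and muscle (ANT1) and was the most abundant member both as a level and per kb of exon. It was at 4578, 4073 and 3571 in WT replicates 1, 2 and 28 and at 4409, 3773, 4022 and 4107 in edKO replicates 5, 6, 15 and 33, so the edKO values lay within the WT range. The log2 difference was 0.0065 with a 95% interval of -0.31 to 0.32 (limma adjusted p = 0.986). Slc25a5, the X-linked gene of the second ADP/ATP carrier (ANT2), was at 767, 708 and 614 in WT and at 775, 651, 722 and 697 in edKO in the same order, a difference of 0.034 (interval -0.20 to 0.27). Of its 61-nt windows, 26.5% also occur in other genes, mostly the pseudogene Gm5560, so part of its reads is uncertain in origin. Slc25a3, the phosphate carrier gene, was at 1177 ± 43.9 and 1190 ± 54.9, a difference of 0.015 (interval -0.20 to 0.23). These 3 genes made up 72.5% of the summed level of all members in WT and 75.5% in edKO. The sum over all 42 members was 8203 ± 690.0 in WT and 7924 ± 375 in edKO, with overlapping groups.

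The remaining genes of the group had overlapping groups. Slc25a23, Slc25a24 and Slc25a25 encode the ATP-Mg/phosphate carriers, which calcium activates, and their log2 differences were -0.034, 0.18 and -0.26. Slc25a17, which encodes the carrier of the peroxisome membrane, stood at 27.7 ± 2.71 and 29.4 ± 2.63.

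**Figure D4:**
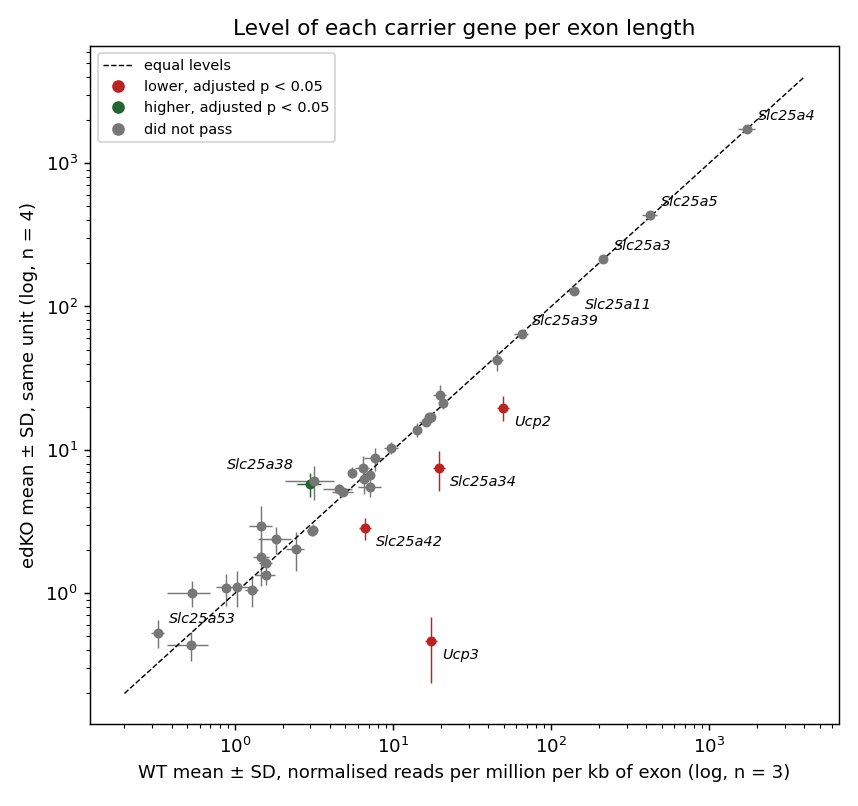
Mean level of 41 of the 42 carrier genes in WT (x) and edKO (y), in normalised reads per 1000000 per kb of exon on log axes, with SD bars. Slc25a4, Slc25a5 and Slc25a3 lie on the line of equal levels at the top, and Ucp3, Ucp2, Slc25a34 and Slc25a42 lie below it.

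Of the carriers of di- and tricarboxylates, 1 of 5 measured genes fell and 4 did not pass. Slc25a34 (ENSMUSG00000040740, chromosome 4, 141618824 to 141623821, minus strand) encodes a carrier whose substrate is not firmly settled and which is placed here by its likeness to organic acid carriers. It was at 54.7, 55.7 and 46.7 in WT replicates 1, 2 and 28 and at 25.4, 22.6, 20.8 and 11.1 in edKO replicates 5, 6, 15 and 33. The groups did not overlap, and edKO replicate 33 was again the lowest. The level fell 2.62-fold, from 52.4 ± 4.90 to 19.98 ± 6.22 (log2 difference -1.40, 95% interval -1.89 to -0.91, limma adjusted p = 0.00560). Per kb of exon it went from 19.6 ± 1.84 to 7.48 ± 2.33, from rank 10 to rank 16 among the members.

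Slc25a11, the oxoglutarate/malate carrier gene and the most abundant of the group, was at 316, 301 and 267 in WT and at 276, 278, 279.7 and 252 in edKO, in the order of replicates given before. The ranges overlap, with a log2 difference of -0.12 (interval -0.31 to 0.08). Slc25a10, the dicarboxylate carrier gene, was at 24.8 ± 4.12 and 19.1 ± 2.89 and did not pass (log2 difference -0.35, adjusted p = 0.230). The citrate carrier gene Slc25a1, which feeds lipid synthesis in the cytosol, was at 14.2 ± 0.943 and 13.5 ± 2.88. Slc25a35, the closest relative of Slc25a34, was at 1.93 ± 0.567 and 1.61 ± 0.373, and 23.9% of its 61-nt windows also occur in other genes, mostly Rangrf, which overlaps it.

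Among 10 carriers of amino acids and their derivatives, 1 gene rose and 9 did not pass. Slc25a38 (ENSMUSG00000032519, chromosome 9, 120110374 to 120124504, plus strand) encodes the glycine carrier that supplies haem synthesis, and its loss causes a sideroblastic anaemia in humans. It was at 7.36, 9.87 and 7.38 in WT replicates 1, 2 and 28 and at 18.1, 12.03, 15.2 and 18.3 in edKO replicates 5, 6, 15 and 33. Every edKO library lay above every WT library. The level rose 1.94-fold, from 8.20 ± 1.44 to 15.9 ± 2.95 (log2 difference 0.87, 95% interval 0.49 to 1.25, limma adjusted p = 0.0171). Without WT replicate 1 or WT replicate 28 the call was lost (adjusted p = 0.0854 and 0.0877).

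Because red cells use this carrier, erythroid markers stand beside it. Of 9 markers 7 were in the table, and their summed level was 40446, 24103 and 28388 in WT replicates 1, 2 and 28 and 53861, 32499, 41112 and 27777 in edKO replicates 5, 6, 15 and 33, so the groups overlapped. Slc25a38 was highest in edKO replicate 33, the edKO library with the lowest erythroid sum. The part of red cells in the result was not tested otherwise. Slc25a37 and Slc25a28, the genes of the iron carriers mitoferrin 1 and 2, did not pass (38.6 ± 3.87 and 44.9 ± 9.82, and 17.01 ± 3.45 and 19.8 ± 1.74).

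Slc25a12 and Slc25a13 encode the aspartate/glutamate carriers of the malate-aspartate shuttle, aralar and citrin. Slc25a12, the most abundant of the amino acid group, was at 141, 154 and 158 in WT and at 175, 142, 162 and 146 in edKO, and the ranges overlap (log2 difference 0.046, interval -0.16 to 0.26). Slc25a13 was at 74.7 ± 6.89 and 91.1 ± 17.1, with a log2 difference of 0.27 that did not pass, and it passed when edKO replicate 33 was left out. Slc25a29, a carrier of basic amino acids, was at 1.35, 1.82 and 0.982 in WT and at 2.92, 2.02, 2.36 and 3.20 in edKO, with separate groups (log2 difference 0.61, adjusted p = 0.139). Separate groups in the other direction were seen for the ornithine carrier gene Slc25a15 (17.2 ± 1.04 and 15.4 ± 0.990, adjusted p = 0.502) and the branched-chain amino acid carrier gene Slc25a44 (25.6 ± 0.586 and 23.8 ± 0.619, adjusted p = 0.608). The glutamate carrier gene Slc25a22, the S-adenosylmethionine carrier gene Slc25a26, Slc25a45 and Slc25a47 had log2 differences between -0.26 and 0.33 and overlapping groups.

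None of 10 carriers of cofactors, other nucleotides, glutathione and metals passed by limma, and 2 of them had an unadjusted p under 0.05, as 19.2% of all genes did. Both encode the pyrimidine nucleotide carriers, which supply the matrix for synthesis of mitochondrial DNA and RNA. Slc25a33 was at 8.21, 5.33 and 4.25 in WT replicates 1, 2 and 28 and at 15.7, 8.95, 9.91 and 11.1 in edKO replicates 5, 6, 15 and 33, with a log2 difference of 0.85 (interval 0.36 to 1.35, limma adjusted p = 0.0598). Slc25a36 was at 51.5, 51.1 and 55.1 in WT and at 69.0, 65.6, 73.0 and 58.8 in edKO, a difference of 0.33 (interval 0.12 to 0.54, adjusted p = 0.0804). In both, every edKO library lay above every WT library. Without WT replicate 1, Slc25a33 passed (adjusted p = 0.0485), and without edKO replicate 33, Slc25a36 passed (0.0215). Of the 61-nt windows of Slc25a33 and Slc25a36, 12.1% and 6.12% also occur in other genes (Gm13068, antisense to Slc25a33, and Gm13217).

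The other 8 genes of this group had overlapping ranges and log2 differences between -0.21 and 0.23. Slc25a39, a glutathione carrier gene and the most abundant of them, was at 199, 173 and 166 in WT and at 185, 191, 173 and 162 in edKO (log2 difference -0.0071, interval -0.22 to 0.20). Slc25a51, the NAD carrier gene, was at 93.3 ± 5.60 and 92.6 ± 3.41.

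The outer membrane members did not pass. Mtch1, an outer membrane protein insertase gene and the most abundant of the 3, was at 279.8, 251 and 238 in WT and at 216, 239, 206 and 295 in edKO, with edKO replicate 33 above every other library (log2 difference -0.11, interval -0.38 to 0.16). Mtch2 was at 148 ± 4.26 and 145 ± 9.69 and Slc25a46, a gene of mitochondrial shape and fission, at 76.7 ± 1.599 and 75.2 ± 8.90. The substrates of Slc25a16, Slc25a34, Slc25a35, Slc25a45 and Slc25a47 are not firmly settled, and their groups are a convenience. The X-linked Slc25a53, placed in no substrate group, was at 2.66, 2.30 and 2.80 in WT and at 4.84, 5.21, 3.20 and 3.69 in edKO. Its groups were separate and it did not pass (log2 difference 0.53, adjusted p = 0.157).

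Over the family, the groups did not overlap for 12 of 42 members, 6 higher and 6 lower in edKO. Of all genes this held for 17.4%, with 8.41% higher and 9.04% lower. These 12 were the 5 called genes and Slc25a15, Slc25a27, Slc25a29, Slc25a33, Slc25a36, Slc25a44 and Slc25a53. Of the 7 that did not pass, 5 were higher in edKO. For the other 30 members the log2 difference lay between -0.35 and 0.33. For 19 members the whole 95% interval lay within 0.5 of no difference.

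**Figure D5:**
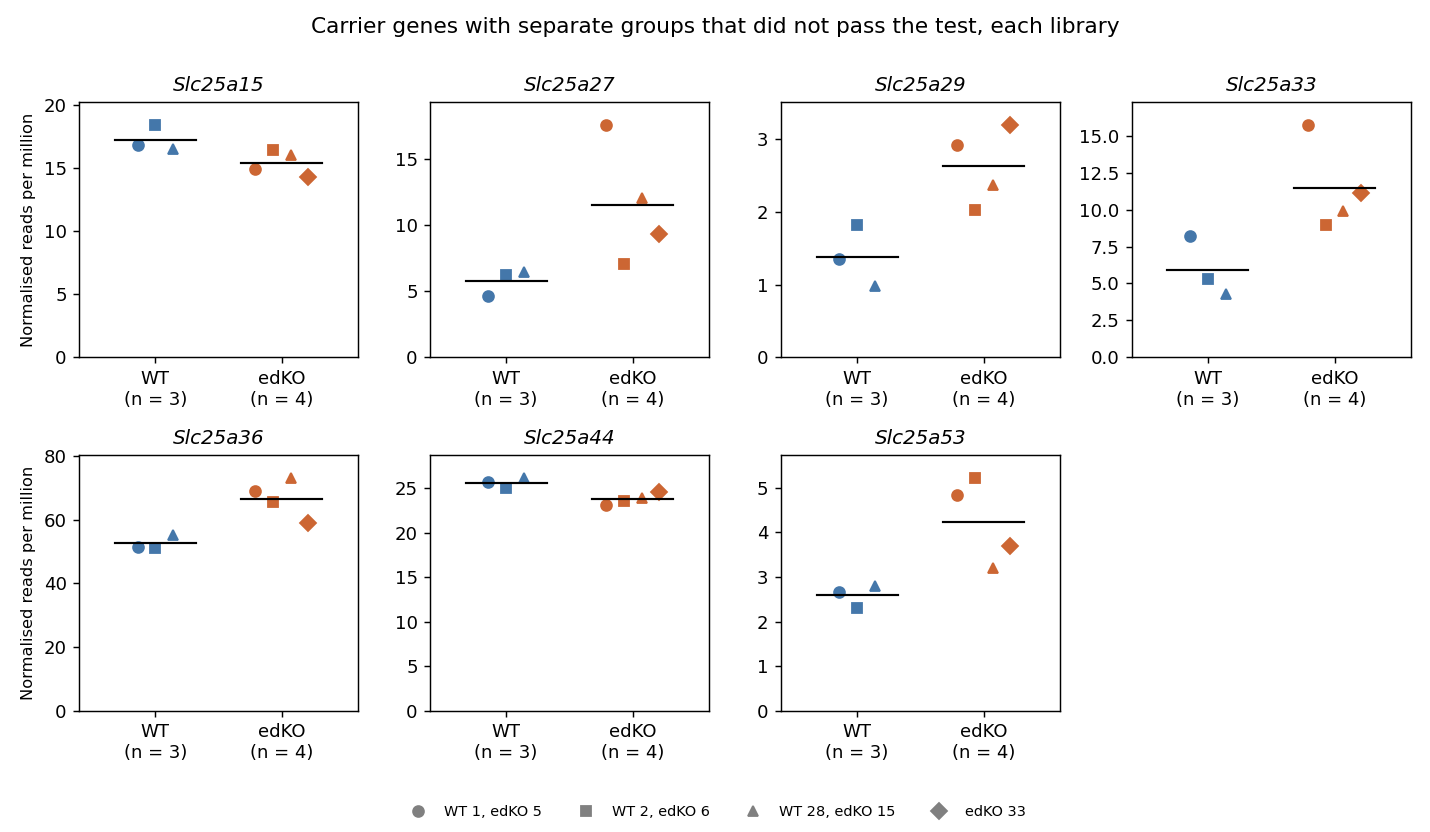
Normalised reads per 1000000 in each library for the 7 carrier genes whose groups did not overlap and which did not pass the test, with bars at the group means. Slc25a27, Slc25a29, Slc25a33, Slc25a36 and Slc25a53 are higher in edKO and Slc25a15 and Slc25a44 lower, and for those 2 the gap between the groups is narrow.

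Pairs of related carriers were compared by the difference of their log2(value + 1) within each library, which a shift of the whole library leaves nearly unmoved. Of 13 pairs, 3 had separate groups. The log-ratio of Ucp3 to Ucp2 was -2.66 ± 0.205 in WT and -5.86 ± 0.431 in edKO, a difference of -3.20 (2-sided exact permutation p = 0.0286, which is as low as 35 assignments can go, and 0.186 adjusted over the pairs). That of Slc25a34 to Slc25a35 went from 4.204 ± 0.165 to 2.96 ± 0.680 (exact p = 0.0286, adjusted 0.186), and that of Slc25a15 to Slc25a29 from 2.95 ± 0.181 to 2.18 ± 0.301 (exact p = 0.0571, adjusted 0.248). The log-ratio of the ADP/ATP carriers Slc25a4 and Slc25a5 was 2.55 ± 0.0275 and 2.52 ± 0.0348, with overlapping groups (exact permutation p = 0.343, adjusted 0.495). No pair passed after adjustment. The sizes depend on the pseudocount: with 5 in place of 1, the difference was -1.88 for Ucp3 to Ucp2 and -0.38 for Slc25a15 to Slc25a29.

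Genes that work with the carriers were counted in the same fit. Of 53 measured genes of mitochondrial transport outside the family, 2 were higher and none lower, with a median log2 difference of -0.064, against 4.21% called over all genes. In the list of other inner membrane transporters, 1 of 21 was higher, Sfxn2, whose family carries serine and related substrates (4.38 ± 1.07 to 8.69 ± 1.84, limma adjusted p = 0.0421). The Sfxn2 call was lost when any single WT library, or edKO replicate 5 or 15, was left out, and also without the trend, with Xist as a covariate and by voom. Named after its values were seen, Mpc1, a subunit of the mitochondrial pyruvate carrier, was at 176, 132 and 126 in WT and at 214, 184, 188 and 205 in edKO, with separate groups, and did not pass (log2 difference 0.46, adjusted p = 0.0527). Its partner Mpc2 was at 147 ± 28.7 and 136 ± 8.39. None of 4 outer membrane channel genes was called, and Vdac1, the most abundant, was at 760.0 ± 15.1 and 727 ± 26.3. None of 14 carrier import genes was called, and Tomm22, a central receptor of the outer membrane translocase and the most abundant by the mean over all 7 libraries, was at 119 ± 18.1 and 93.8 ± 4.64, with separate groups (log2 difference -0.33, limma adjusted p = 0.115). None of 7 NADH shuttle enzymes was called, with Mdh1, the cytosolic malate dehydrogenase, at 1446 ± 104 and 1436 ± 82.0. Of 8 genes of permeability transition and partners of the ADP/ATP carrier, 1 was higher, Ckmt2, the mitochondrial creatine kinase of muscle, which went from 229 ± 4.54 to 332 ± 15.7 (limma adjusted p = 0.00358, with every edKO library above every WT library).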

How the data were processed

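RNA of 7 newborn mouse hearts (3 WT, 4 edKO) was sequenced as single reads of 61 nt from amplified cDNA, per the labels' protocols. Tools listed in the submitters' processing notes are cutadapt, limma and RSEM 1.3.1, with build GRCm38. No order, annotation release or gene filter is stated there. The authors deposited a signal table, normalised reads per 1000000. Tested on the values, each is reads plus 0.5 over an effective library size, and 100% of 96516 came out whole within 1e-06. Every gene listed had at least 1 read per 1000000 in 3 or more libraries. Such scaling hides a shift common to most genes. EdgeR and DESeq2, planned as alternatives, were not run on the back-calculated reads, and limma voom was.

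The test was limma 3.58.1 (R 4.3.3) with a mean-variance trend and no covariate, fitted to log2(value + 1) of all 13788 genes, 2-sided, with Benjamini-Hochberg adjustment and a threshold of 0.05. A fold on this scale understates the change of low genes, so folds are ratios of group means. Exact permutation used all 35 assignments. Coordinates and exon lengths are from GENCODE M21, which held 99.5% of the gene identifiers. Fits were tested on simulated data. Results for 3 genes are not reported here, and 1 of them, a member, is left out of the plots. The labels call the samples biological replicates and name no litters. Amplified reads are not independent molecules. Values in every library are given for called members, the most abundant member of each substrate group, the ADP/ATP carriers and the uncouplers, and members with separate groups are named. Members, lists and pairs were chosen with earlier results of these data known, and the neighbouring genes and promoter motifs were examined after the members' values were seen. The fit was repeated by voom, with Xist in the model, with library weights, with a robust variance, without the trend, after median centring or quantile normalisation, with a pseudocount of 0.1 or 5, on genes averaging 1 or more, and without each library in turn. Python 3.11.15, pandas 2.3.3, numpy 2.4.6 and matplotlib 3.10.9 were used.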

Additional observations from a re-analysis of the deposited data

Results flagged for a closer look

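Chance puts 1 sample apart in about 1 in 20 groups, and 2 of the 42 edKO groups had a library whose gap to its nearest neighbour took up more of the range of the 4 than Dixon's 95% critical value. For Slc25a11, the oxoglutarate carrier gene, edKO replicate 33 was at 251.8 against 276 to 279.7 in the other 3. For Slc25a30, an uncoupling protein relative, it was at 3.60 against 9.37 to 10.2. This library, edKO replicate 33, is the most deeply sequenced. Its marker sums were 6792 for fibroblasts and 247 for epicardium, against 3286 to 4882 and 144 to 168 in the other 3 edKO libraries. Its erythroid sum was the lowest of the 4, at 27777. The cardiomyocyte marker Myl7 was at 1285 in it, against 274 to 477. The part of depth or cell make-up in these values was not tested. WT groups of 3 were not examined in this way.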

How the results depend on the processing

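Ucp3, Ucp2, Slc25a42 and Slc25a34 were called lower in each of the 17 other settings, with adjusted p at most 5.74e-05, 0.00447, 0.0125 and 0.0401. Slc25a38 was called in all but the fits without WT replicate 1 or 28. The fit without WT replicate 2, with as many samples, kept the call (limma adjusted p = 0.0343). The count of called members was 8 with library weights (Slc25a27, Slc25a33 and Slc25a36 added) and 4 to 7 on leaving out 1 library. The count over all genes was 370 without the trend, 364 with Xist as a covariate, 1284 with library weights and 222 to 1177 on leaving out 1 library. Other transport genes called were 1 without the trend, with Xist or with voom, 5 with library weights and 1 to 5 on leaving out 1 library; Ckmt2 was called in all 17 settings and Sfxn2 in 9. On leaving out 1 library, members with separate groups were 13 to 16, while the share over all genes also rose, to between 20.1% and 29.7%, and pairs were 3 to 5. With a pseudocount of 0.1 the log-ratio difference was -3.93 for Ucp3 to Ucp2 and -1.06 for Slc25a15 to Slc25a29. Among members near no difference, signs turned for Slc25a39 (0.031 with library weights, 0.011 with quantile normalisation), Slc25a3 (-0.036 with quantile normalisation) and Slc25a4 (-0.12 with quantile normalisation, -0.023 with Xist). On leaving out 1 library the differences ranged from -0.011 to 0.089 for Slc25a12, -0.061 to 0.070 for Slc25a39, -0.016 to 0.045 for Slc25a3, -0.085 to 0.094 for Slc25a4 and -0.055 to 0.11 for Slc25a5. The cause was not tested. EdgeR and DESeq2, planned for recovered reads, were not run. No paired analysis was possible because the groups share no replicate number. Depth limits Slc25a14, Slc25a29, Slc25a35, Slc25a47 and Slc25a53, whose group means lay between 1 and 5 normalised reads per 1000000. It also limits Ucp3 in edKO, at a mean of 1.45.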

Other observations

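Within 100 kb of the other called members, the table held 9 genes around Slc25a42, 3 around Slc25a38 and 7 around Slc25a34. Of these, 1 was called: Fblim1, which encodes an adhesion protein, near Slc25a34, named after its values were seen, at 95.9 ± 6.604 in WT (n = 3) and 61.4 ± 2.20 in edKO (n = 4; log2 difference -0.63, limma adjusted p = 0.00188).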
